A study of Mus musculus with 2 samples.

Results

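The genes described are 35 genes of antioxidant defence in mice, drawn from the glutathione, thioredoxin, peroxiredoxin, dismutase and glutathione transferase systems together with their regulator. They were taken from a list of symbols by exact match to the deposited table, and all 35 were found among its 23988 genes. The samples are 2 RNA-seq libraries of untransformed myeloid progenitors, labelled MP, from C57BL/6 mice. The labels describe lineage-depleted (Lin-) bone marrow kept for 7 days under myeloid conditions with IL3, SCF and IL6, with no treatment and no genetic change. The labels do not say whether the libraries, here replicate 1 and replicate 2, came from separate animals or cultures, so the spread between them may be technical. They form 1 group, leukaemia cells named in the series title were not analysed here, and with 2 libraries the smallest p an exact permutation of signs allows is 0.5. No test was therefore run, and differences are described against the spread between the libraries.

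Cells make superoxide and hydrogen peroxide in respiration and, in phagocytes, in the oxidative burst. Superoxide dismutases turn superoxide into hydrogen peroxide, which catalase, glutathione peroxidases and peroxiredoxins then remove. The peroxidases draw electrons from the small peptide glutathione or from the protein thioredoxin, and both are returned to their reduced form with NADPH. The transcription factor NRF2, the product of Nfe2l2, raises many of these genes under oxidative or electrophilic stress, and KEAP1 marks NRF2 for degradation when the stress is absent.

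Values are RPKM, read numbers scaled by gene length and library size, as the authors deposited them. The steps between the values gave effective depths of 29941063 reads for replicate 1 and 28793666 for replicate 2, into which a normalisation factor may have entered. Of the myeloid progenitor and neutrophil precursor markers, 11 of 11 in the table reached 1 RPKM in both libraries, and their summed level was 6202 RPKM in replicate 1 against 5483 in replicate 2. Markers of B cells (1 of 5 at 1 RPKM in both, Pax5 and Ms4a1 at 0) and of T and NK cells (0 of 6, with Cd3e, Cd4 and Ncr1 at 0) were low. The erythroid list reached 1 RPKM with 2 of 8 genes, Tfrc at 594 and 441 RPKM and Gata1 at 42.9 and 51.7. The list of stroma and endothelium did so with 1 of 6, Pecam1 at 194 and 154 RPKM.

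The listed antioxidant genes were expressed broadly and at high levels. In both libraries 34 of the 35 reached 1 RPKM, which is called detected here, against 62.3% of the 16777 genes above 0 in either library. The exception was Gstt1. The list was chosen with earlier results of these data known, so the contrast with all genes holds for the listed genes only. Among related genes outside it, detection ran from 3 of 9 further peroxidases and dismutases to 13 of 14 other NRF2 targets. Of 27 further transferases and glutathione enzymes, 14 were detected. The median of the 35 members was 47.5 RPKM in replicate 1 against 40.9 in replicate 2. Beside it stood 4.19 and 4.75 for all genes above 0 and 13.4 and 13.2 for the 10896 genes averaging at least 1 RPKM. At 100 RPKM or more in both libraries stood 11 members, a level reached by 5.15% of genes above 0. These were Prdx5, Prdx6 and Prdx1, Gpx1 and Gpx4, Gstm1 and Mgst1, Gsr, Txn1, Txnip and Glrx. Together the 35 genes held 0.626% of the summed RPKM in replicate 1 and 0.733% in replicate 2. Without Txnip, left out after its values were seen, the shares were 0.596% and 0.567%, so the higher share in replicate 2 rested on that gene.

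**Figure D1:**
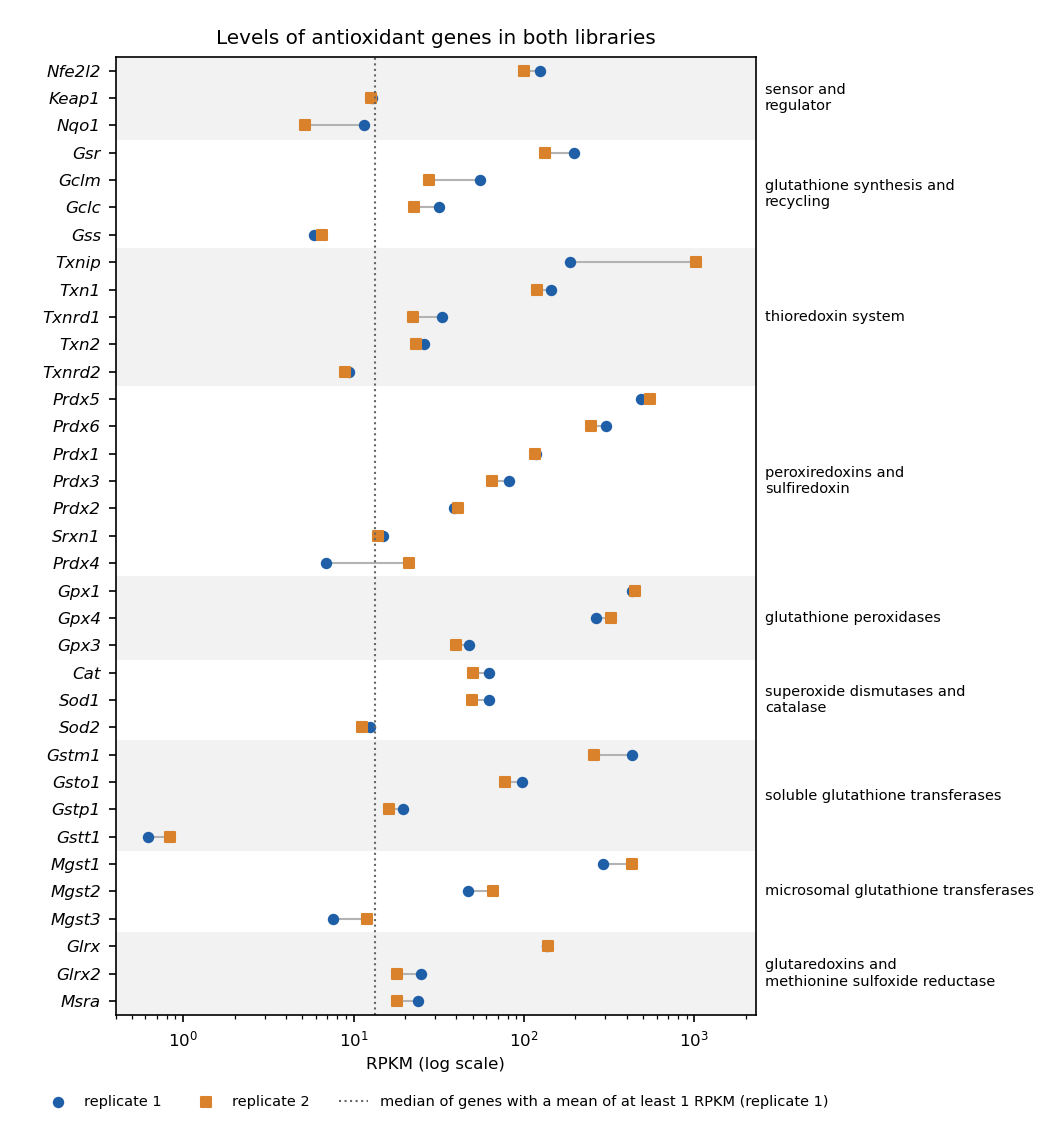
RPKM on a log axis of each of the 35 antioxidant genes, grouped by role, with a circle for replicate 1 and a square for replicate 2, and a dotted line at 13.4 RPKM, the replicate 1 median of genes averaging at least 1 RPKM. Gstt1 lies far below the other genes, and Txnip shows the widest gap between the libraries.

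The regulator gene was much more abundant than the gene of its inhibitor. Nfe2l2 measured 125 RPKM in replicate 1 against 99.8 in replicate 2, at percentile 94.9 of genes above 0 by its mean, whereas Keap1 stood at 12.9 and 12.7. Per length, the level of Nfe2l2 was 9.68 times that of Keap1 in replicate 1 and 7.86 times in replicate 2. On the log2(RPKM + 1) scale the difference in level was 3.03 ± 0.21 (SD, n = 2). Nqo1, which encodes a quinone reductase and is a classical target of NRF2, was among the lowest members at 11.5 and 5.19 RPKM.

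Genes of glutathione synthesis were moderate in level, and the recycling enzyme was high. Gclc encodes the catalytic subunit of glutamate-cysteine ligase, the rate-limiting enzyme of glutathione synthesis, and measured 31.9 RPKM in replicate 1 against 22.7 in replicate 2. Gclm encodes the modifier subunit of the same enzyme and stood at 54.8 and 27.8 RPKM. The difference in level between Gclc and Gclm, -0.52 ± 0.34 on the log2(RPKM + 1) scale (SD, n = 2), was within 2 SD, with the catalytic subunit lower in both libraries. Gss, the synthetase of the last step, was the lowest of the group at 5.85 and 6.50 RPKM. Gsr, the reductase that restores glutathione with NADPH, was the highest at 196 and 132 RPKM.

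In the thioredoxin system the cytosolic genes exceeded their mitochondrial counterparts. Txn1, the cytosolic thioredoxin, stood at 145 and 120 RPKM and Txn2, the mitochondrial form, at 26.0 and 23.1. Their difference in level was 2.38 ± 0.08 on the log2(RPKM + 1) scale (SD, n = 2), the smallest SD of the 12 differences examined. The reductase Txnrd1 of the cytosol stood at 33.1 and 22.3 RPKM against 9.43 and 8.91 for the mitochondrial Txnrd2, a difference of 1.47 ± 0.34 (SD, n = 2). Both exceeded 2 SD. Txnip encodes a protein that binds thioredoxin and restrains glucose uptake, and it was the member with the highest mean level. It stood at 185 RPKM in replicate 1, place 8 among the members, and at 1017 RPKM in replicate 2, place 1.

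The order between cytosol and mitochondria was the same in the other enzyme pairs except among peroxiredoxins. Sod1, the copper and zinc superoxide dismutase of the cytosol, stood at 62.5 and 49.4 RPKM, and Sod2, the manganese enzyme of mitochondria, at 12.5 and 11.1. The difference was 2.15 ± 0.13 on the log2(RPKM + 1) scale (SD, n = 2). Glrx, the cytosolic glutaredoxin that reduces mixed disulfides with glutathione, stood at 136 and 139 RPKM against 24.9 and 17.9 for Glrx2, whose main product is mitochondrial, a difference of 2.65 ± 0.35 (SD, n = 2). The median of 6 cytosolic members (Txn1, Txnrd1, Prdx1, Prdx2, Sod1, Glrx) exceeded that of 5 mitochondrial members (Txn2, Txnrd2, Prdx3, Sod2, Glrx2) by 1.88 ± 0.20 (SD, n = 2). In RPKM this was 3.60 times in replicate 1 and 4.62 times in replicate 2. These are the genes of the single pairs, so the medians restate those pairs. Prdx5, found in mitochondria and elsewhere, entered neither set, at 486 and 551 RPKM. Cat, the peroxisomal catalase, was close to Sod1 at 62.5 and 50.1 RPKM.

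**Figure D2:**
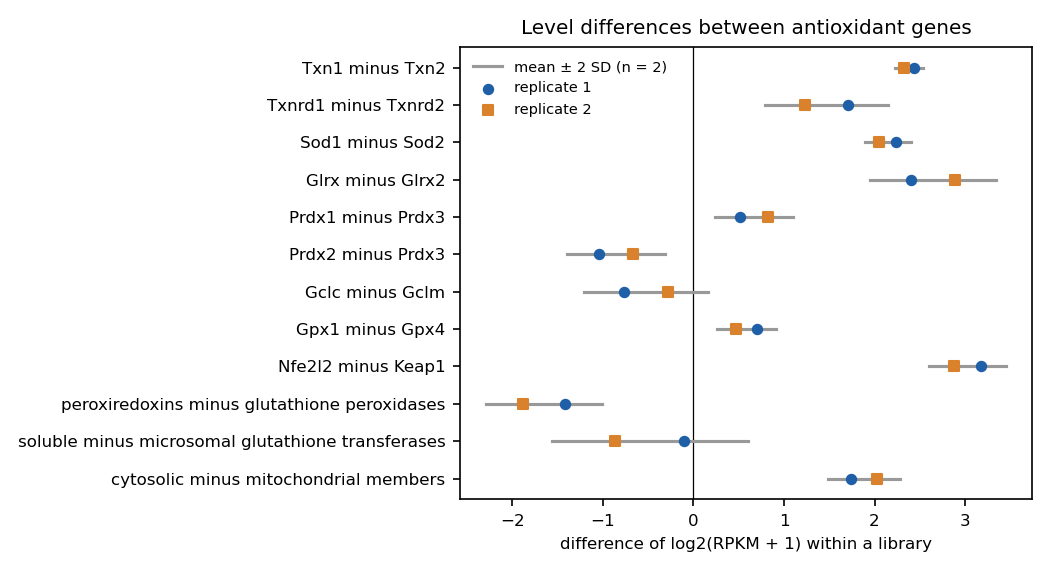
Differences of log2(RPKM + 1) between genes or group medians within each library (circle, replicate 1; square, replicate 2), with grey bars of 2 SD to each side of the mean. The bars cross 0 for Gclc minus Gclm and for soluble minus microsomal transferases and lie on 1 side of 0 for the other 10 differences.

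Peroxiredoxins, which reduce peroxides through a reactive cysteine, spanned a wide range. Prdx5, found in mitochondria, peroxisomes and cytosol, was the highest at 486 RPKM in replicate 1 and 551 in replicate 2. Prdx6, which works with glutathione in place of thioredoxin, followed at 305 and 247 RPKM, and the cytosolic Prdx1 at 117 and 116. The mitochondrial Prdx3, at 81.4 and 65.3 RPKM, lay below Prdx1 by 0.67 ± 0.21 (SD, n = 2) and above the cytosolic Prdx2, at 39.0 and 40.9, by 0.85 ± 0.27 on the log2(RPKM + 1) scale, both beyond 2 SD. Prdx4, the form of the endoplasmic reticulum, was low and differed between the libraries, at 6.88 and 21.1 RPKM. Srxn1, sulfiredoxin, which repairs overoxidised peroxiredoxins, stood at 14.9 and 13.9 RPKM.

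The 3 listed glutathione peroxidases had the highest median of the role groups, 263 RPKM in replicate 1 and 322 in replicate 2. Gpx1, the main soluble enzyme, stood at 428 and 446 RPKM, and Gpx4, which reduces lipid hydroperoxides in membranes, at 263 and 322. Gpx1 exceeded Gpx4 in both libraries, by 0.58 ± 0.16 on the log2(RPKM + 1) scale (SD, n = 2). Gpx3, the secreted form known from plasma, stood at 47.5 and 39.7 RPKM. The median of the 6 peroxiredoxins lay below that of the 3 listed glutathione peroxidases by 1.65 ± 0.32 (SD, n = 2), with medians of 99.2 and 90.6 RPKM for the peroxiredoxins. Gpx2, Gpx5, Gpx6, Gpx7 and Gpx8 were not among the 3. The highest of them, Gpx8, stood at 0.193 and 0.0572 RPKM. Both the high median and this order thus hold for the listed genes only, not for the whole glutathione peroxidase family. With the highest member left out, the median of the glutathione peroxidases, averaged over the libraries, was 168 RPKM.

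Glutathione transferases, which attach glutathione to electrophiles, were led by Gstm1 and Mgst1. Gstm1 measured 429 RPKM in replicate 1 against 259 in replicate 2. Gsto1, of the omega class, stood at 97.0 and 77.5 RPKM. Gstp1 stood at 19.5 and 16.0 RPKM. It has a near-identical neighbour, Gstp2, listed at 0.0449 and 0.187 RPKM, and reads shared by the 2 genes may be lost in counting, so the level of Gstp1 is uncertain. Reads of Gstm1 can likewise be shared with its close relatives, of which Gstm4 was the highest at 22.0 and 22.5 RPKM. Gstt1 was barely present at 0.622 and 0.831 RPKM, values that fit as few as 7 and 9 reads, though the real numbers may be larger.

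Of the membrane-bound transferases, Mgst1 stood at 292 and 432 RPKM, Mgst2 at 47.0 and 65.6, and Mgst3 at 7.54 and 12.0. Mgst1 protects membranes from lipid peroxides, and Mgst2 can also make leukotriene C4. The median of the 4 soluble transferases, 58.2 RPKM in replicate 1 and 46.8 in replicate 2, lay above that of the 3 microsomal ones, 47.0 RPKM, in replicate 1 and below theirs, 65.6 RPKM, in replicate 2. With medians taken on the log2(RPKM + 1) scale the difference was -0.10 in replicate 1 and -0.87 in replicate 2, and its mean, -0.48 ± 0.54 (SD, n = 2), was within 2 SD, so neither group was higher beyond the spread. Msra, the reductase that repairs oxidised methionine, stood at 24.0 and 17.9 RPKM.

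Differences between the libraries are ratios of RPKM + 1, replicate 2 over replicate 1, on a log2 scale, for the 34 members with a mean of at least 1 RPKM. Each side is 1 library, so they describe these libraries and have no replicate check. The median log2 ratio was -0.21 over the members and -0.05 over all 10896 genes of that level, and 23 of 34 members (67.6%) lay below 0 against 55.9% of all genes. The median size of the log2 ratio, without sign, was 0.31 over the members and 0.25 over all genes. At 1.5-fold or more, 3 of 34 members (8.82%) were higher in replicate 2, against 11.3% of all genes. As many members, 3 of 34 (8.82%), were higher in replicate 1, against 4.26% of all genes. At 2-fold the counts were 2 and 1, against 5.3% and 0.734% of all genes.

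**Figure D3:**
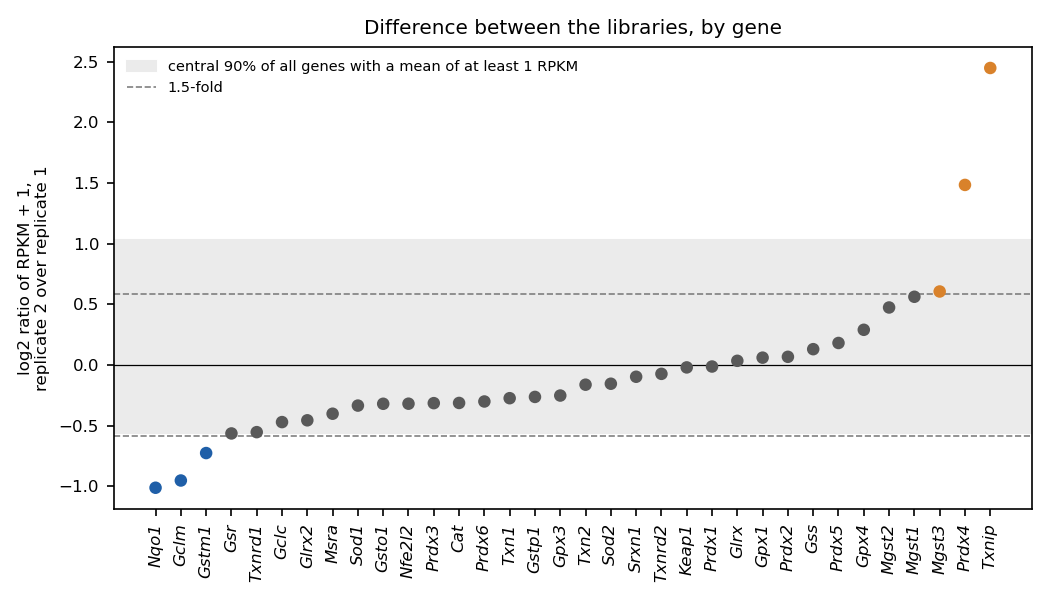
Log2 ratio of RPKM + 1, replicate 2 over replicate 1, for the 34 antioxidant genes averaging at least 1 RPKM in rising order; dashed lines mark 1.5-fold and the grey band holds the central 90% of all genes of that level. Txnip and Prdx4 lie above the band, Nqo1, Gclm and Gstm1 below it, and Mgst3 lies inside the band just past the upper dashed line.

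Txnip differed most. Its level was 185 RPKM in replicate 1 against 1017 in replicate 2, a ratio of 5.48 with a 95% interval of 5.29 to 5.69. Such intervals come from the smallest read numbers that fit the values and cover counting error only, since the reads carry no molecular identifiers. The real read numbers may be larger, in which case the counting intervals would be narrower than printed. The log2 ratio of Txnip, 2.45, stood in place 57 from the top among 10896 genes. The other 4 members of the thioredoxin system had log2 ratios between -0.55 (Txnrd1) and -0.07 (Txnrd2), so that Txnip made the group's share of the members' summed RPKM 26.4% in replicate 2 against 10.4% in replicate 1.

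The Txnip promoter is printed because this gene carries the widest difference and is known to be driven through a carbohydrate response element, a pair of E-box-like sites with a gap between them that the glucose-responsive factors MondoA and ChREBP bind. The stretch below is from RefSeq, build GRCm38.p6, chr3:96557856-96557904, plus strand, and its capitals mark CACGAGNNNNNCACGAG, bases -85 to -69 from the annotated start.
Txnip: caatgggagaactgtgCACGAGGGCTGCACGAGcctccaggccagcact
These letters were taken from the Txnip sequence itself, as the 6 bases opening with CACG that recur after a gap of 5. A match in the Txnip promoter was therefore fixed in advance. On either strand the letters occurred in 1 of 32851 RefSeq promoters of 300 bases (0.00304%), which was that promoter. The count thus gives no support for a working site. A match of letters is a description and shows no binding in these cells.

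Prdx4 and the microsomal transferases were also higher in replicate 2. Prdx4 measured 6.88 RPKM in replicate 1 against 21.1 in replicate 2, a ratio of 3.06 with a counting interval of 2.60 to 3.62. None of the other 5 peroxiredoxins passed 1.5-fold, their log2 ratios lying between -0.31 (Prdx3) and 0.18 (Prdx5). All 3 microsomal transferases leaned to replicate 2, with log2 ratios of 0.56 for Mgst1, 0.47 for Mgst2 and 0.61 for Mgst3. Only Mgst3 passed 1.5-fold, with a ratio of 1.59 and an interval of 1.34 to 1.90. Mgst1 lay just inside the limit, and it passed when ratios were centred on the median of all genes, at 0.61.

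Nqo1, Gclm and Gstm1, each known as a target of NRF2, were higher in replicate 1. Nqo1 measured 11.5 RPKM in replicate 1 against 5.19 in replicate 2, a ratio of 2.21 for replicate 1 over replicate 2 with a counting interval of 1.85 to 2.66. Gclm stood at 54.8 and 27.8 RPKM, a ratio of 1.97 with an interval of 1.82 to 2.13. Gstm1 stood at 429 and 259 RPKM, a ratio of 1.66 with an interval of 1.54 to 1.78. The members just short of 1.5-fold in the same direction were Gsr, at a log2 ratio of -0.56, and Txnrd1, at -0.55, followed by Gclc at -0.47 and Glrx2 at -0.46. Srxn1 and Prdx1, which also respond to NRF2, had log2 ratios of -0.10 and -0.01. The regulator genes themselves stood at -0.32 for Nfe2l2 and -0.02 for Keap1.

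**Figure D4:**
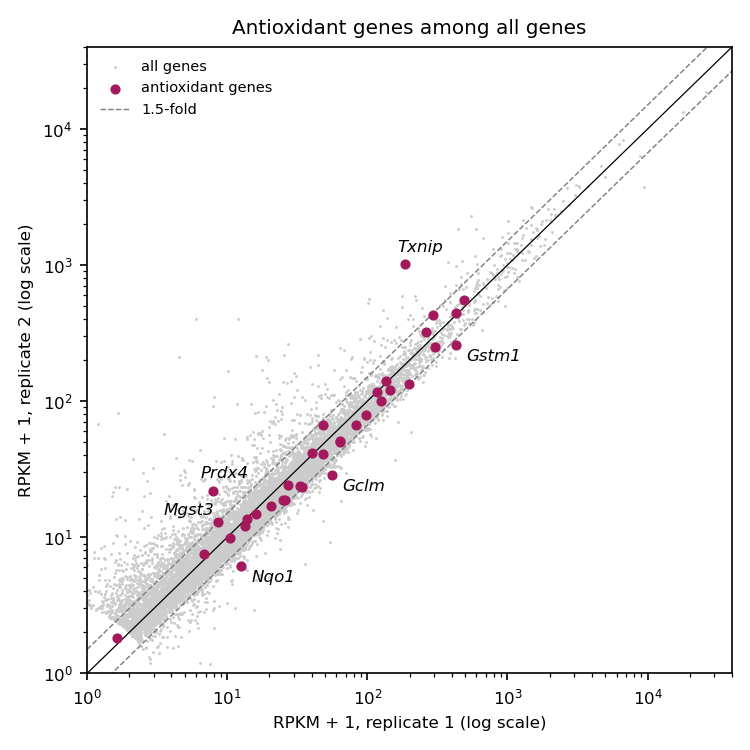
RPKM + 1 in replicate 2 against replicate 1 on log axes, with all genes of a mean of at least 1 RPKM in grey, the 35 antioxidant genes in colour, the line of equality and dashed lines at 1.5-fold. The 6 named genes lie outside the dashed lines, Txnip, Prdx4 and Mgst3 above and Nqo1, Gclm and Gstm1 below.

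The promoters of the members were searched for the core of the antioxidant response element, the site NRF2 binds with a small MAF protein. RefSeq promoters, from 250 bases before to 50 bases after an annotated start in build GRCm38.p6, were found for 31 of the 35 genes, in 42 entries. Those without an entry were Gclc, Gsr, Msra and Prdx6. The letters TGACNNNGC occurred on either strand in 7 of the 42 (16.7%), against 12.4% of all 32851 promoters. The 7 matches are shown with up to 16 bases to each side, because they are the members whose own start region holds these letters. Capitals mark the match, which reads as GCNNNGTCA where it lies on the strand opposite to the gene, as in each but Nfe2l2.
Gclm: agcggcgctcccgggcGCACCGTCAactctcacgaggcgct
Txnrd1: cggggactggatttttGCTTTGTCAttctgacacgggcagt
Prdx1: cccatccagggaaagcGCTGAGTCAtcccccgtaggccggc
Srxn1: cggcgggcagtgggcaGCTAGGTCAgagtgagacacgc
Sod1: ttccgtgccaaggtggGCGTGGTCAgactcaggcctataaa
Mgst1: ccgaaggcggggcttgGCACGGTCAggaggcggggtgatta
Nfe2l2: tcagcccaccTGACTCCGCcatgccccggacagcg
In order these lie at chr3:122245407-122245447, chr10:82859098-82859138, chr4:116685450-116685490, chr2:152105536-152105573, chr16:90220690-90220730, chr6:138140455-138140495 and, on the minus strand, chr2:75704879-75704913. The first 6 are on the plus strand. The match runs, counted from the annotated start, from base -134 in Gclm, -133 in Prdx1, -92 in Txnrd1 and -56 in both Sod1 and Mgst1. In Nfe2l2 it runs from base -240, and in Srxn1 it lies after the start, from base 29. The 7 genes had log2 ratios between the libraries from -0.95 (Gclm) to 0.56 (Mgst1) with a median of -0.32. The other 23 members with an entry and a mean of at least 1 RPKM had a median of -0.07. Those 23 ran from -1.01 (Nqo1) to 2.45 (Txnip) and also held Gstm1 at -0.73. The 4 members without an entry entered neither median, with Gsr at -0.56, Gclc at -0.47, Msra at -0.40 and Prdx6 at -0.30. Whether the matches bear on the ratios was not tested. A match is not a shown site, and the letters can lie outside this window.

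Other genes of the same pathways were read from lists beside the members, against the same background of 11.3% of genes higher in replicate 2 and 4.26% higher in replicate 1. Of 11 partners and regulators of NRF2, 9 were detected. Bach1, the repressor that competes with NRF2 for its sites, was the highest at 80.2 and 97.4 RPKM, followed by Sqstm1 at 67.9 and 69.7, Nfe2 at 50.1 and 37.8 and Nfe2l1 at 29.0 and 30.3. The small MAF gene Maff, at 5.75 and 13.2 RPKM, was the 1 of 9 past 1.5-fold.

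Genes listed for NADPH supply were high in both libraries, with 10 of 11 detected and 0 of 10 past 1.5-fold. The list takes in pentose phosphate enzymes that do not all make NADPH themselves, Tkt and Taldo1 among those that do not. The pentose phosphate enzymes led, with Tkt (transketolase) at 959 and 822 RPKM, Pgd at 264 and 267, G6pdx at 192 and 167 and Taldo1 at 148 and 134. The exception was Me1, a malic enzyme of the cytosol, at 0.42 and 0.12 RPKM. The list of further thioredoxin and glutaredoxin genes also held methionine sulfoxide reductases and thioredoxin-like genes. Its genes were detected in 12 of 13 cases, with 0 of 12 past 1.5-fold. The highest were the methionine sulfoxide reductase Msrb1 at 115 and 107 RPKM and the thioredoxin-like Txnl4a at 76.5 and 63.8. Glrx5 at 60.9 and 47.1 and Txndc5 at 52.5 and 54.8 followed.

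Many other peroxidase and transferase genes were low. Of 9 further peroxidases and dismutases 3 were detected, namely the granule enzymes Mpo at 1587 and 1164 RPKM and Epx at 58.9 and 35.8 and the copper chaperone Ccs at 16.9 and 15.7. Epx was past 1.5-fold. Sod3, the extracellular dismutase, stood at 0.0515 and 0.375 RPKM, and Gpx5 and Gpx6 were listed at 0. Of 27 further transferases and glutathione enzymes 14 were detected, led by Esd at 103 and 94.3 RPKM, Lancl1 at 21.1 and 38.5, Glo1 at 26.1 and 23.4 and Gstm4. Of the 15 averaging at least 1 RPKM, 2 passed 1.5-fold, Lancl1 and the transferase of extracellular glutathione Ggt5, at 3.15 and 6.63, both higher in replicate 2.

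Few other known targets of NRF2 passed 1.5-fold between the libraries. Of 14 such genes 13 were detected. Of 13 averaging at least 1 RPKM, 2 were higher in replicate 2 by 1.5-fold, against 11.3% of all genes. In replicate 1, 0 of 13 were higher, against 4.26% of all genes. Counts this small cannot be told apart from those shares. The 2 genes past 1.5-fold ran in the direction opposite to Nqo1 and Gclm. These were Hmox1, haem oxygenase 1, at 22.7 RPKM in replicate 1 against 47.8 in replicate 2, and Ephx1, an epoxide hydrolase, at 1.52 and 3.42. Ftl1, the ferritin light chain, led at 8869 and 6343 RPKM, followed by Fth1 at 288 and 418, Ugdh at 52.7 and 67.5 and Slc3a2 at 61.4 and 55.5. The median log2 ratio of the 13 genes was 0.11, with Fth1 at 0.54 and Ftl1 at -0.48.

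Markers of several cell types also differed between the libraries. The mast cell list, 7 genes in the table, summed to 39.6 RPKM in replicate 1 and 802 in replicate 2, with 5 of 6 genes of a mean of at least 1 RPKM past 1.5-fold. Monocyte markers summed to 94.2 and 530 RPKM (5 of 5), macrophage markers to 1102 and 2970 (8 of 9), class II antigen presentation markers to 163 and 1189 (5 of 5) and basophil markers to 1393 and 2740 (3 of 6), all higher in replicate 2. None of the 11 progenitor and neutrophil precursor markers passed 1.5-fold. In bulk RNA a change in the number of cells of a type and a change in RNA per cell cannot be told apart, and the part of these markers in the differences of Txnip, Prdx4, Mgst3, Nqo1, Gclm and Gstm1 was not tested.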

How the data were processed

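RNA-seq was measured in 2 libraries of 1 group. Per the submitters' processing notes, the authors used Trimmomatic 0.32, TopHat2, HTSeq and edgeR with genome build mm9; settings, annotation, gene lengths and strand handling are not stated in those notes. The authors deposited RPKM values, 1 column per library. Of 24015 rows, 27 with names turned into dates were left out. Differences between libraries were log2 ratios of RPKM + 1 (pseudocount 1), which understate differences of low genes, for genes averaging at least 1 RPKM. Level differences within a library were called beyond the spread when both had the same sign and the mean exceeded 2 SD. Library sizes came from 474 genes with equal reads in both libraries (ratio 0.962, tolerance 1e-05) and 16 of 848 genes with 1 GENCODE transcript that shared a scale (tolerance 1e-06). Intervals are exact Clopper-Pearson at 95% on the smallest read numbers that fit, so they may be too wide. Python 3.11.15, pandas 2.3.3 and scipy 1.17.1 were used. All members were named; of each other list the 4 highest and those at least 2-fold different were named. Other genes named for a count, for a close copy or as the exception of a list (Ggt5, Ephx1, Gstp2, Me1, Sod3, Tfrc, Gata1, Pecam1) were chosen after their values were seen. So were Gpx2, Gpx7 and Gpx8, named as relatives of the listed glutathione peroxidases. Members and lists were chosen with earlier results of these data known. Alternatives covered the pseudocount, filter, scaling, fold, summary and each library left out.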

Additional observations from a re-analysis of the deposited data

How the results depend on the processing

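All 12 level differences kept their direction and their side of 2 SD with a pseudocount of 0.1 and with values scaled to a common sum, and kept their direction on the log2(RPKM + 1) scale in each library alone. The soluble minus microsomal transferase difference did not keep its direction with medians of RPKM, which were 1.24 times as high for the soluble genes in replicate 1 and 0.713 times in replicate 2. The median level of the members, 44.2 RPKM averaged over the libraries, was 119 with a mean over members in place of the median, and from 40.9 to 47.5 with either library left out. The number of members higher in replicate 1 by 1.5-fold, 3, stayed at 3 under the other pseudocount, filters and scalings and was 1 at 2-fold. The members' share of the summed RPKM, 0.679% averaged over the libraries, was 0.786% with the 10 highest genes of the table left out and 0.582% without Txnip. Its range with either library left out was 0.626% to 0.733%. No paired analysis was possible because there is 1 group. The lengths behind RPKM are not given, so levels of different genes are comparable only as far as those lengths are right.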
